A study of Mus musculus with 195 samples.

Results

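Antisense polyadenylated sites are the positions where a poly(A) tail was mapped on the strand opposite to an annotated gene. They were taken from the table of sites in single mouse stem cells as every site of the classes antisense within, upstream of or downstream of a gene that carries an Ensembl gene identifier. This gave 2087 of 94587 sites in all, at 1058 host genes, with 2976 molecules among the 762992 on genes, or 0.390%. Of these sites, 1440 lay within the host gene (2097 molecules), 383 lay upstream of it (506 molecules) and 264 lay downstream (373 molecules).

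The measurements were made with BATSeq, a single-cell method that reads the 3′ end of each RNA next to its poly(A) tail and counts molecules by random barcodes. All cells derived from 1 mouse line, 46C, an E14tg2a derivative with GFP at the Sox1 locus, and small cells in G1 were sorted. ESC-2i are embryonic stem cells kept in N2 and B27 with the kinase inhibitors PD0325901 (1 µM) and CHIR99021 (3 µM) and with LIF at 10 ng/ml. ESC-FCS are the same line kept in 10% FBS and LIF at 10 ng/ml. NSC are neural progenitors derived from this line and grown in N2 and B27 with EGF and bFGF. Each population was measured in 48 cells in 2 library batches, accompanied by 48 additional ESC-FCS cells in 2 more libraries, 2 pools of 48 ESC-2i cells and 1 pool of 48 ESC-FCS cells. The labels name no replicate cultures, so each population counts as 1 sample and no test between populations was made, and all intervals below are 95% exact intervals that cover counting error only.

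Antisense transcripts arise in several ways. Some are stable long noncoding RNAs with their own promoter, which overlap a gene on the other strand and in a few cases silence it. Others start from the divergent direction of an active promoter and are soon degraded by the nuclear exosome, while still others are copies of unrelated mRNAs that were inserted into the intron of a host gene as processed pseudogenes. A protocol with reverse transcription and second-strand synthesis can also give molecules on the wrong strand of an abundant RNA, so spike-in transcripts, which have no antisense partner, served as the background.

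The sequences that end at the site are shown for the antisense sites with at least 4 molecules whose bases could be read, because they show which of them resemble the mRNA of another gene and which carry a poly(A) signal. These hosts were thus chosen by their counts after the values were seen. Bases came from GENCODE M21 transcripts and RefSeq promoters on GRCm38 and could be read for 199 of the 2087 sites, since most antisense sites lay in introns. Each line gives the 30 bases up to the site, 5′ to 3′ on the antisense strand, with the poly(A) signals AATAAA and ATTAAA in capitals. The first 3 pairs set an antisense site beside the mRNA of another gene that it matches.
Adamts17 antisense, chr7:66993989-66994018, minus strand: tatgttcgcttggctcctgattatgatgca
Rpl23a mRNA: tatgttcgcttggctcctgattatgatgcc
Gm25781 antisense downstream, chr14:120815133-120815162, minus strand: gtctctgttcagaagatccaggctccagct
Rps2 mRNA: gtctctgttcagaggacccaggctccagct
Gm6436 antisense, chr13:28257951-28257980, plus strand: aagctgcgtgaggacctggagcggctgaag
Rps18 mRNA: aagctgcgtgaggacctggagaggctgaag
Gphn antisense upstream, chr12:78225123-78225152, minus strand: ctaaagatgaAATAAAaattgttgattaca
Plod2 antisense, chr9:92608349-92608378, minus strand: aaaaatgaattttggcaccgtgAATAAAga
Plod2 antisense, chr9:92607902-92607931, minus strand: acgcttgaagcactttgtaaagcagaaaga
Prex2 antisense, chr1:11299563-11299592, minus strand: ccATTAAAacaagtttaatgagaaaaaata

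The site in Adamts17, a gene for a secreted metalloprotease, lay in an intron and inside Gm44609, a processed pseudogene on the antisense strand. Its 30 bases differed at 1 position from the mRNA of Rpl23a, a ribosomal protein gene with 114 sense molecules in these cells, and the site held 22 molecules from 23 reads in 20 cells. The Gm25781 site, inside the processed pseudogene Gm18076, differed at 2 positions from Rps2. The Gm6436 site, which GENCODE M21 places outside that pseudogene and inside Gm11361, annotated as protein coding, differed at 1 position from Rps18, a ribosomal protein gene with 1372 sense molecules. Reads of these sites and of the matching mRNA cannot be separated with certainty, so their counts are uncertain. The Gphn, Plod2 and Prex2 sites had no such match, but a neighbouring antisense site of Prex2 at 11299595, with 1 molecule, matched the mRNA of the translation factor gene Eef1a1 without a mismatch. Over the 199 sites with bases, 20 matched the transcript of a gene elsewhere with at most 3 mismatches in 39 bases, and they held 54 of the 277 molecules at those sites.

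The Gphn site stood 1.26 kb upstream of the start of the gene for gephyrin, the scaffold of inhibitory synapses, and inside Gm48226, annotated as a lncRNA of a bidirectional promoter. It held 5 molecules from 60 reads, 4 of them in NSC and 1 in ESC-2i. Both Plod2 sites lay opposite an exon of this lysyl hydroxylase gene and held 4 molecules each, from 22 reads at the site with AATAAA and from 4 reads at the other. That AATAAA stood less than 10 bases before its site, outside the window of 10 to 30 bases tried as an alternative below. The Prex2 site, opposite an exon of a gene for a Rac activator, held 4 molecules from 13 reads, all in ESC-2i. A check of the poly(A) signal over all antisense sites is void, because only 9.54% of them had bases. Among the 199 that did, 26 carried AATAAA or ATTAAA in the 40 bases before the site, on the antisense strand (13.1%, interval 8.72 to 18.6). The same search gave 78.9% of 12575 sense sites within 10 bases of an annotated gene end, 38.0% of 11563 in last exons and 7.13% of 2610 in other exons. In introns it gave 33.1% of 1019 sense sites (30.2 to 36.1), but only 9.66% of those sites had bases, so this value is void over all of them too.

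Cells with at least 1000 molecules on genes and a column in the table of genes were kept, 33 of each ESC population and 41 NSC, with 1090 to 21101 molecules each. The table of genes as used here has no column for 2 ESC-FCS cells with 1979 and 1310 molecules, which were left out. The 24 cell barcodes were the same in all 8 single-cell libraries, and cells of different libraries were told apart by a batch barcode. The 9 pluripotency markers summed to 1.12 molecules per 10000 on genes in NSC, where 6 of 9 were at 0, against 31.2 (ESC-2i) and 21.1 (ESC-FCS). The 9 neural stem cell markers summed to 54.5 per 10000 in NSC, with Pax6 at 0 there, against 1.96 (ESC-2i) and 1.77 (ESC-FCS). Markers of other types summed to less than those of each population's own type. The 4 neuron markers summed to 2.72 (ESC-2i), 5.08 (ESC-FCS) and 4.35 (NSC) per 10000. In ESC-FCS 4.41 of this was Stmn2, which was at 0 in NSC. The highest sums in any population were 0.543 for astrocytes, 0.380 for mesoderm and 0.265 for endoderm.

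Every kept cell held antisense molecules. In ESC-2i 1051 of 369276 molecules on genes were antisense (0.285%, interval 0.268 to 0.302), at 748 sites. In ESC-FCS the count was 1121 of 227679 (0.492%, 0.464 to 0.522), at 849 sites. In NSC it was 719 of 152494 (0.471%, 0.438 to 0.507), at 586 sites. Antisense molecules thus took a smaller share of the ESC-2i molecules than in the other populations, and all 4 library batches of ESC-FCS and NSC (0.416 to 0.587%) lay above both ESC-2i batches (0.253 and 0.320%). Single cells spread more widely and overlapped. The lowest, median and highest ESC-2i cell had 0.133, 0.276 and 0.557% antisense molecules. For ESC-FCS these values were 0.157, 0.436 and 1.65%, and for NSC 0.0829, 0.416 and 2.02%. The split by class was alike, since 70.0% (ESC-2i), 72.6% (ESC-FCS) and 67.2% (NSC) of the antisense molecules lay within the host gene.

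The spike-in background moved with these shares. Of the ERCC molecules counted beside ESC-2i, 89 of 31576 were antisense (0.282%, 0.226 to 0.347). Beside ESC-FCS there were 52 of 9430 (0.551%, 0.412 to 0.723), and beside NSC 63 of 16007 (0.394%, 0.303 to 0.503). In each population the interval of the spike-in share overlapped that of the genes, so a difference between genes and spike-ins was not detectable in these sums. Counted in reads the share on genes was lower, 0.0802% (ESC-2i), 0.113% (ESC-FCS) and 0.132% (NSC), against 0.264% for all spike-in reads. Within batches the 2 shares did not move together. In ESC-FCS batch 1 the spike-in interval (0.607 to 1.13) lay above that of the genes (0.388 to 0.459). In ESC-FCS batch 2 it lay below (0.0957 to 0.397 against 0.540 to 0.637). The same held in NSC batch 2 (0.0955 to 0.281 against 0.370 to 0.466). In the other batches of the main series the intervals overlapped. The spike-in share was higher in batch 1 than in batch 2 for ESC-2i (0.362 and 0.202%), for ESC-FCS (0.838 and 0.209%) and for NSC (0.666 and 0.171%), whereas the share on genes was higher in batch 1 for ESC-2i and NSC but lower there for ESC-FCS (0.422 and 0.587%). The additional ESC-FCS cells, 42 with at least 1000 molecules, gave 243 antisense molecules among 223278 (0.109%, 0.0956 to 0.123), below every batch of the main series, with 15 of 3341 spike-in molecules antisense (0.449%, 0.251 to 0.739). The cause of this difference between cells of the same medium was not tested.

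**Figure D1:**
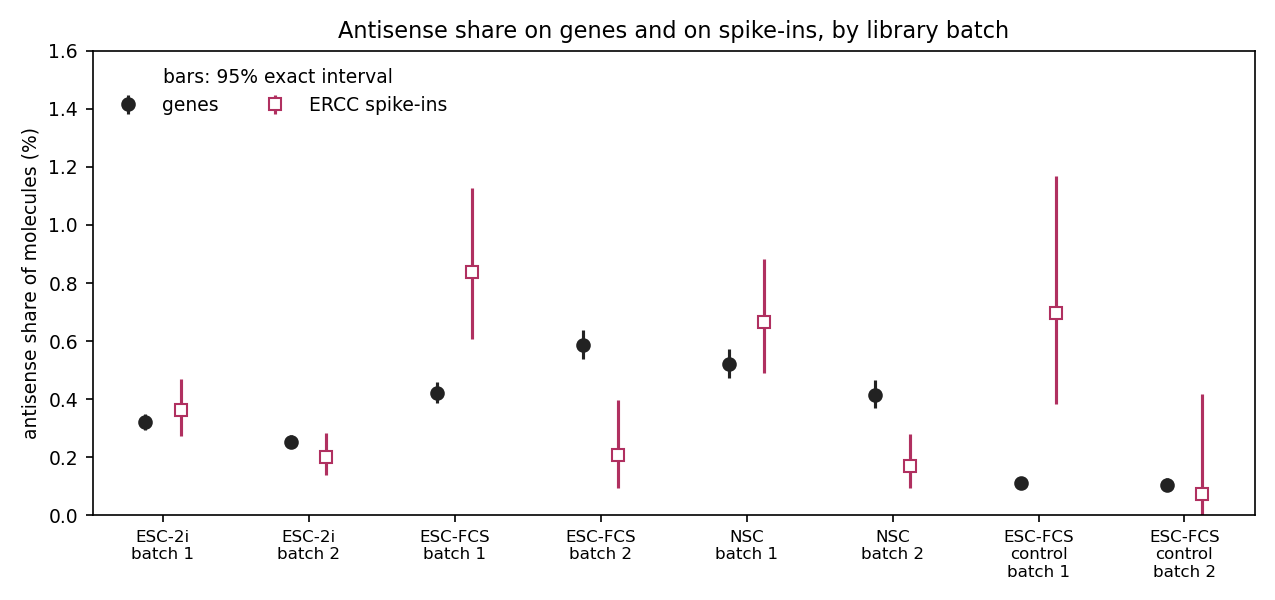
Antisense share of molecules (%) on genes (filled circles) and on ERCC spike-ins (open squares) in each library batch of the 3 populations and of the additional ESC-FCS cells; bars are 95% exact intervals. The spike-in share is higher in batch 1 than in batch 2 of every group, while the share on genes is between 0.253 and 0.587% in the main series and near 0.109% in the additional ESC-FCS cells.

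Read support differed between the classes. Antisense molecules on genes had 3.17 reads each, against 9.42 for antisense spike-in molecules, 12.3 for sense molecules on genes and 5.76 for intergenic molecules. Of the entries with 1 antisense molecule at a gene, 69.8% rested on 1 read, compared with 46.9% of those on spike-ins. Across the cells of a population the number of antisense molecules followed the number of intergenic molecules, with Pearson's r of 0.904 and Spearman's rho of 0.894 over 33 ESC-2i cells, 0.943 and 0.925 over 33 ESC-FCS cells, and 0.921 and 0.865 over 41 NSC. These counts share the depth of the cell, and with molecules on genes the rho was 0.727, 0.785 and 0.687. Relative to intergenic molecules the 3 populations were closer together, at 6.10, 8.09 and 7.12 antisense molecules per 100 intergenic ones, than relative to spike-in molecules, at 3.33, 11.9 and 4.49 per 100. Outside the main series the ratio to intergenic molecules differed. It was 4.54 in the additional ESC-FCS cells, 25.2 in the ESC-FCS pool and 49.2 and 43.3 in the ESC-2i pools.

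The relation to sense expression set genes apart from spike-ins. The 1279 genes with at least 100 sense molecules in the kept cells had 469693 sense molecules and, within or beside them, 74 antisense molecules, a share of 0.0158% (0.0124 to 0.0198), and only 22 of them had any. The spike-in share in the same cells was 204 of 57013, or 0.358% (0.310 to 0.410), and the 8 ERCC transcripts with at least 1000 sense molecules each had antisense molecules, at 0.161 to 0.685%. The ERCC transcript with the most sense molecules, ERCC-00074, had 14039 sense and 55 antisense molecules at 14 sites. The antisense share of these genes was thus below that of every well-covered spike-in transcript.

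This difference has to be read with the way molecules were assigned. A molecule was given first to a gene on its own strand, including 20 kb beyond that gene's end, and was called antisense only when no such gene was found. The part of a gene's opposite strand left free by this rule, here called assignable and computed from GENCODE M21, was 66.8% of the length for genes with at least 100 and under 1000 sense molecules and 38.0% for those with 1000 or more. Among genes whose opposite strand was wholly assignable the share within genes was 0.0557% (0.0396 to 0.0761) in the first class, against 0.0208% (0.0156 to 0.0270) for all genes of that class. The 24 wholly assignable genes with 1000 or more had 1 antisense and 67709 sense molecules. Both values stayed below the spike-in share.

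Per length, antisense molecules within genes differed little between genes with few and with more sense molecules. Molecules were counted by the deposited class, so some lay on strand that is not assignable in GENCODE M21, whereas the length leaves that strand out. There were 2.55 per Mb of assignable strand (2.40 to 2.72) at genes with 1 to 9 sense molecules, 2.62 (2.45 to 2.80) with 10 to 99 and 2.64 (1.99 to 3.43) with at least 100 and under 1000. Over the same classes the sense molecules in introns rose from 7.71 to 20.8 and 55.6 per Mb of gene. For wholly assignable genes the antisense densities were 2.70, 2.79 and 5.28 (3.76 to 7.22), so the third class was higher there. Genes with no sense molecule had 0.523 per Mb (0.437 to 0.621), and these were also short, with a median of 1.49 kb. At 1000 or more sense molecules the density was 43.6 per Mb, but this rested on 7 molecules, 6 at Rps13-ps1 and 1 at Gm10036. Both are processed pseudogenes with many similar copies, so their counts are uncertain, and both were named after their values were seen.

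**Figure D2:**
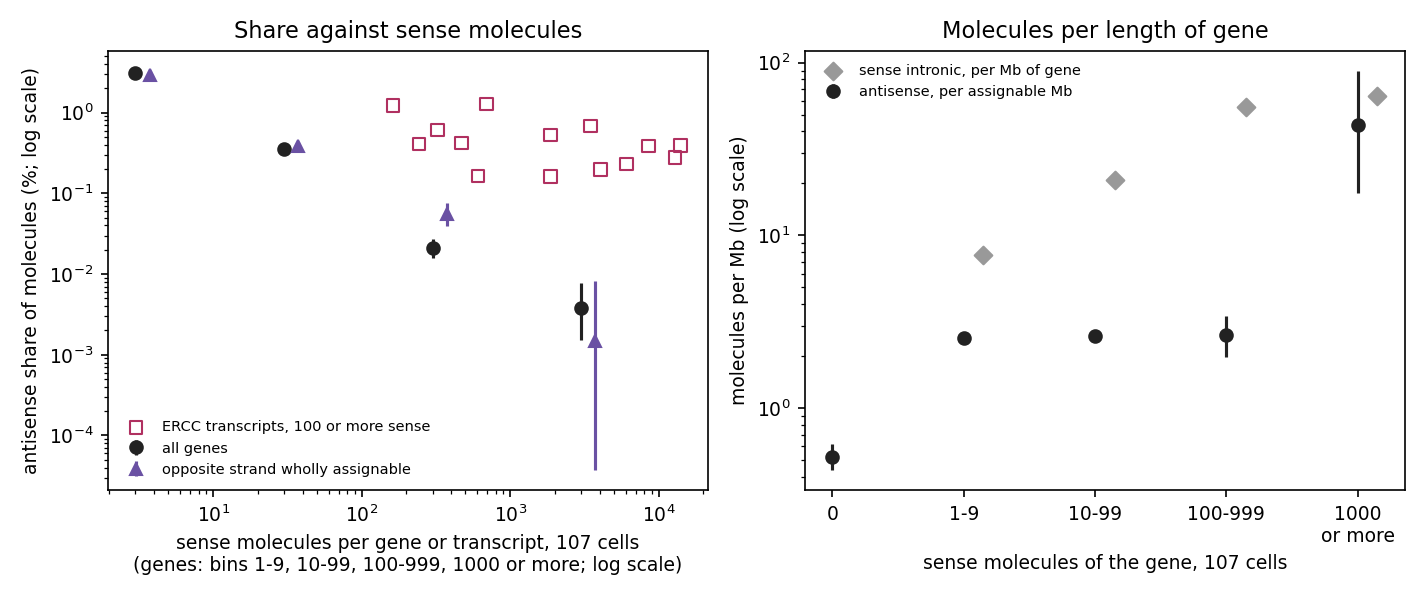
Left, antisense share of molecules (%) by the number of sense molecules, both on log scales, for all genes (circles), for genes whose opposite strand is wholly assignable (triangles) and for ERCC transcripts (squares). Right, antisense molecules per assignable Mb (circles) and sense molecules in introns per Mb (diamonds) on a log scale; bars are 95% exact intervals, the share on genes falls from 3.05% to 0.00376% while the density over all genes stays between 2.55 and 2.64 per Mb in the classes from 1 to under 1000 sense molecules.

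Host genes were long. Their median length was 104 kb, against 16.9 kb for all genes with a sense molecule, and the 301 hosts of 300 kb or more held 1384 of the 2891 antisense molecules in kept cells (47.9%). A longer gene offers more strand to be counted on, but the density, with the same limit on the molecules counted, rose as well. Protein-coding genes of 10 to 30 kb had 0.252 antisense molecules per assignable Mb (0.144 to 0.409), those of 30 to 100 kb 1.15 (1.00 to 1.30), those of 100 to 300 kb 1.43 (1.29 to 1.59), and those of 300 kb or more 4.49 (4.25 to 4.74). Without the 10 hosts with the most molecules the longest class had 3.05 (2.85 to 3.26), still the highest. Among protein-coding genes with no sense molecule the density also rose with length, from 0.140 at 10 to 30 kb to 1.72 at 300 kb or more, where 37 molecules fell on 15 of 46 genes. Sense molecules in introns were sparser in long genes, at 17.6 per Mb of gene in the 10 to 30 kb class and 8.19 in the longest. Genes under 10 kb had 0.758 (0.403 to 1.30), from 13 molecules.

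**Figure D3:**
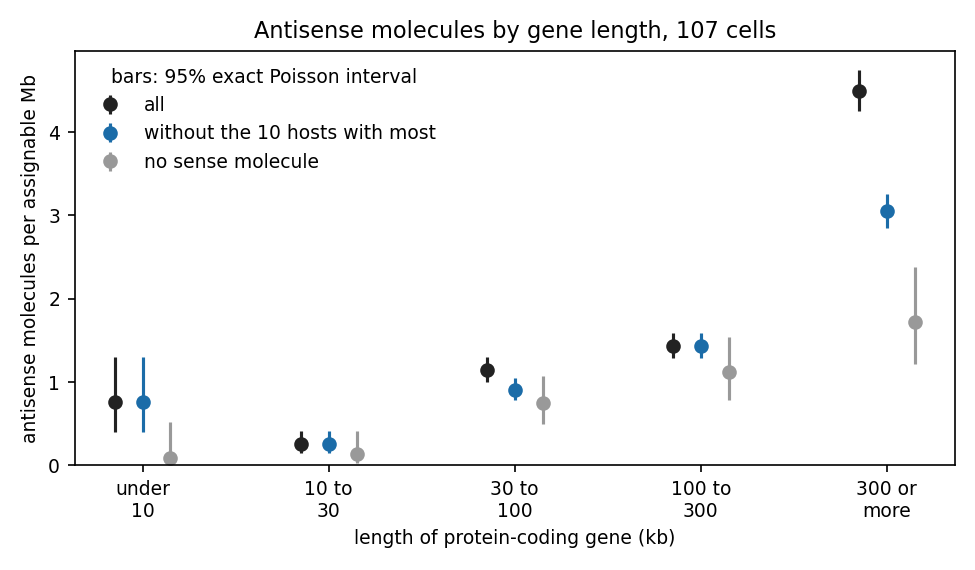
Antisense molecules per assignable Mb in protein-coding genes by gene length, for all of them, without the 10 hosts with the most molecules, and for genes with no sense molecule; bars are 95% exact Poisson intervals. The density rises from 0.252 at 10 to 30 kb to 4.49 at 300 kb or more, and to 3.05 without those 10 hosts.

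A host gene was called above the background when it had at least 5 antisense molecules in the kept cells and an antisense share of at least 10 times the spike-in share, that is 3.58%. This held for 121 of the 19623 genes with a molecule (0.617%). They carried 1327 antisense molecules, 45.9% of all, and 15 of them had no sense molecule. Only 6 genes with 5 or more antisense molecules stayed below the limit. At 442 hosts antisense molecules outnumbered sense molecules, and 336 hosts, with 592 antisense molecules, had no sense molecule at all. Of the host genes 69.3% were protein coding, with 81.4% of the molecules, and 9.52% were processed pseudogenes, with 5.33%.

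None of the 10 hosts with the most antisense molecules had more than 28 sense molecules. Cntnap2, a neurexin-related adhesion gene of 2245 kb on chromosome 6, had 98 antisense and 21 sense molecules, and its antisense molecules numbered 53 (ESC-2i), 26 (ESC-FCS) and 19 (NSC). Single ESC-2i cells held 0 to 7 of these molecules (median 1) and cells of the other populations 0 to 3 (median 0), but per 10000 molecules on genes the populations were close, at 1.44 (ESC-2i), 1.14 (ESC-FCS) and 1.25 (NSC). Dlgap1, a postsynaptic scaffold gene, also had 98, against 18 sense molecules, and here ESC-FCS was highest with 59 (2.59 per 10000), compared with 27 in ESC-2i (0.731) and 12 in NSC (0.787). The single cells of the populations overlapped for both genes.

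Gabrg3, which encodes a GABA-A receptor subunit, had 46 antisense and 3 sense molecules. Ctnnd2, for the catenin δ2 of neuronal junctions, had 44 antisense and 28 sense molecules. Its antisense molecules came to 0.379 (ESC-2i), 0.615 (ESC-FCS) and 1.05 (NSC) per 10000 on genes, 2.77-fold higher in NSC than in ESC-2i (1.27 to 6.12), and 18 of its sense molecules were also in NSC. Adamts17 had 62 antisense and 8 sense molecules, Mageb18, an X-linked MAGE family gene, 50 and 5, and Pcsk5, a proprotein convertase gene, 32 and 3. Sh3bp4, an endocytic adaptor gene of 84.7 kb, had 33 antisense and 11 sense molecules. In all of these the antisense molecules outnumbered the sense ones in the sum of the populations.

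The molecules of these genes came mainly from a few positions. Of all 2087 sites, 1830 (87.7%) had a single molecule in the 144 cells, while 18 sites with 10 or more molecules held 500, or 16.8%. Sites seen in at least 2 cells numbered 241 and held 37.3% of the molecules. Of the 18 recurrent sites 14 occurred in all 3 populations and 15 lay in an intron of the host in GENCODE M21. The 14 sites were thus counted in embryonic and in neural cells, with positions within 12 bases merged to 1 site in the deposited table. At the recurrent sites of Sh3bp4 and Lrfn5 and at the Gabrg3 site 57176706, however, NSC had only 1 molecule.

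The most frequent site lay in an intron of Cntnap2 at chromosome 6, position 46778359, 1719 kb from the gene start, with 78 molecules in 46 cells, 40 of them ESC-2i, 25 ESC-FCS and 13 NSC molecules. Almost every molecule there rested on a single read, 79 reads in all. The Mageb18 site at position 92202758 of the X chromosome behaved alike, with 48 molecules from 49 reads in 35 cells, of which 19 fell in batch 1 of ESC-2i and 0 in batch 2. So did the Adamts17 site at 66990885 on chromosome 7, with 41 molecules from 42 reads in 32 cells.

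In all, 8 of the 18 recurrent sites had fewer than 1.5 reads per molecule, with 260 molecules in 11 to 46 cells each. Other sites had more reads. A pair of neighbouring Dlgap1 sites on chromosome 17 had 54 molecules from 94 reads at 70392665 and 42 from 186 reads at 70392598. The Ctnnd2 site at 30545517 on chromosome 15 had 33 molecules from 151 reads, and the Sh3bp4 site at 89096883 on chromosome 1 had 27 from 89. The site downstream of Vmn1r-ps151, a vomeronasal receptor pseudogene, had 14 molecules at 15.9 reads each. High and low read support was therefore found among sites with like numbers of molecules and cells.

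**Figure D4:**
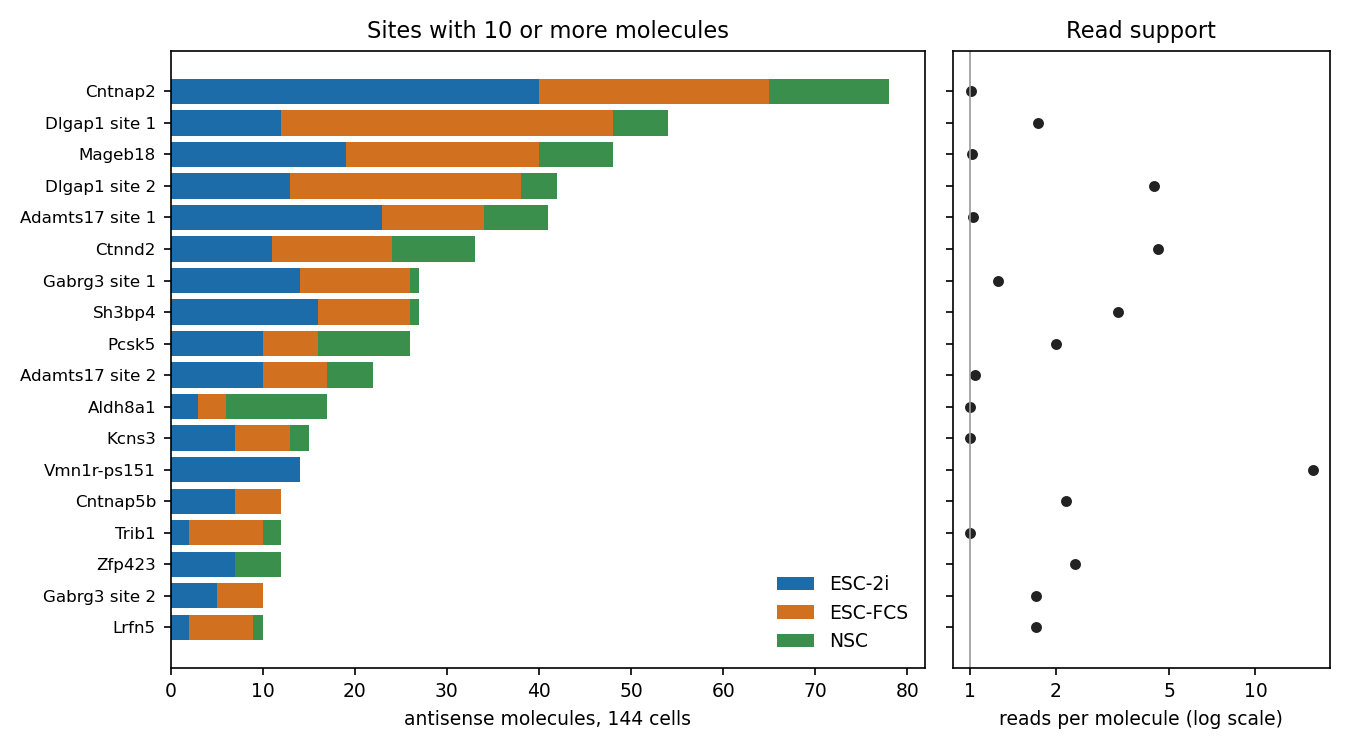
The 18 antisense sites with 10 or more molecules in the 144 cells. Left, molecules stacked by population, from 78 at Cntnap2 to 10 at Lrfn5; right, reads per molecule on a log scale with a line at 1, near which 8 of the sites lie, while Vmn1r-ps151 is at 15.9.

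Some sites went with a cell barcode rather than with a population. The site in an intron of Zfp423, a zinc finger transcription factor gene, at 87870495 on chromosome 8 had 12 molecules in 4 cells, 2 of ESC-2i and 2 of NSC, in 4 different libraries, and all 4 cells carried the same cell barcode, GCTACC. A site in Cdh9, a cadherin gene, at 16801800 on chromosome 15 was found in 3 cells of 3 libraries that all carried CACTGT. The recurrent Lrfn5 site, with 10 molecules, was found in 4 cells that carried 2 cell barcodes between them. Among the 146 antisense sites seen in exactly 2 cells, 17 (11.6%, 6.93 to 18.0) joined cells with the same cell barcode. The share was 11.2% (9.81 to 12.6) of 1990 intergenic sites, 6.17% (4.81 to 7.79) of 1069 sense sites in introns and 2.98% (2.20 to 3.93) of 1613 sense sites within 10 bases of a gene end. Antisense and intergenic sites were alike in this measure and both stood above gene ends, and the cause was not tested. The most frequent site, in Cntnap2, was by contrast spread over 22 of the 24 barcodes. Zfp423, Cdh9 and Lrfn5 were named here after their values were seen.

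Between populations, hosts with at least 10 antisense molecules in the 2 groups compared were described as differing when the antisense molecules per 10000 on genes differed by at least 4-fold, a group with 0 molecules being set to 3 counts. For ESC-FCS against ESC-2i this was so for 3 of 16 hosts (18.8%), beside 7.24% of 7633 genes by the same rule on sense molecules. For NSC against ESC-2i it was 3 of 15 (20%, sense 18%) and for NSC against ESC-FCS 4 of 14 (28.6%, sense 18.2%). All of these kept their direction in each pairing of the library batches. The batch counts are parts of the sums that had to differ for the call, so this is not independent support. The numbers of hosts are small, and the comparisons share their populations.

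Dmd, the dystrophin gene, had 10 antisense molecules in 9 ESC-FCS cells and 2 in 2 ESC-2i cells, an 8.11-fold difference (interval 1.73 to 76.1), and 0 in NSC. The 12 molecules lay at 11 different sites along its 2257 kb, whereas its sense molecules numbered 20 in ESC-2i and 10 in ESC-FCS. Trib1, a pseudokinase gene, had 8 and 3 antisense molecules, 4.33-fold (1.04 to 25.3). The most frequent Trib1 site held 8 ESC-FCS, 2 ESC-2i and 2 NSC molecules. It lay downstream of this 8.75 kb gene, 23.3 kb from the gene start. Vmn1r-ps151 had 27 antisense molecules in 14 ESC-2i cells, 11 in batch 1 and 16 in batch 2, and 0 in the 33 ESC-FCS cells. With this 0 set to the floor of 3 counts for the group it was 5.55-fold lower in ESC-FCS, with a lower exact limit of 4.21. Its antisense molecules numbered 16 in the ESC-2i pools and 0 in the pool and the additional cells of ESC-FCS, and no sense molecule was counted. Vomeronasal receptor pseudogenes form a large family of similar copies. The most frequent site of Vmn1r-ps151, with 14 molecules, however lay outside this 0.982 kb pseudogene, 14.8 kb from its start. Whether similar copies affect the counts there was not tested, so these counts are uncertain.

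E130114P18Rik had 10 antisense molecules in 6 NSC and 2 in ESC-2i, 12.1-fold (2.58 to 114), and 0 in ESC-FCS. With this 0 set to a floor of 3 counts over the group, NSC was 4.98-fold higher, with a lower exact limit of 3.35. These molecules had 17.1 reads each, lay at 8 sites over its 210 kb, and were accompanied by 3 sense molecules, all in NSC. Aldh8a1, an aldehyde dehydrogenase gene without a sense molecule, had 11 antisense molecules in 11 NSC against 4 in each ESC population. NSC was thus 6.66-fold (1.97 to 28.7) above ESC-2i and 4.11-fold (1.22 to 17.7) above ESC-FCS. Every one of the 19 Aldh8a1 molecules rested on 1 read. The most frequent Aldh8a1 site held 17 molecules, 11 of them in NSC. It lay downstream of this 19.3 kb gene, 31.9 kb from the gene start. Sh3bp4 went the other way, with 1 antisense molecule in NSC, 21 in ESC-2i and 11 in ESC-FCS, 8.67-fold (1.39 to 359) and 7.37-fold (1.07 to 317) lower in NSC. Its sense molecules numbered 5 in NSC and 3 in each ESC population. Gabrg3 had 3 in NSC and 22 in ESC-FCS, 4.91-fold lower (1.48 to 25.6).

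Plod2 was called in no comparison, since it had 8 antisense molecules. All 8 were in 7 NSC of batch 1, at the exonic sites printed above, and ESC-2i and ESC-FCS had 0. The sense molecules of Plod2 were 7, 2 and 4. It was named after its values were seen.

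Hosts with no sense molecule that had the most antisense molecules were Vmn1r-ps151, Aldh8a1, Gm2128, Gm2464 and Gm25505. Gm2128, an unprocessed pseudogene on chromosome 7, had 17 antisense molecules (13 ESC-2i, 4 ESC-FCS and 0 NSC molecules) from 367 reads. Its sites lay inside Gm44748, a lincRNA annotated on the antisense strand, and the ESC-2i pools held 22 antisense molecules at this gene. Gm2464, a lincRNA gene, had 10, of which 7 lay at a single position inside Ralyl, a protein-coding gene on that strand, and Gm25505, a small RNA gene, had 10 from 14 reads.

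Genes known for regulatory antisense RNA gave few molecules, 7 antisense beside 762 sense. Their antisense share was 0.910% (0.367 to 1.87), an interval that includes the 0.386% of all genes. The assignment rule gives RNA of an annotated opposite-strand gene to that gene and not to the antisense class. A low count was thus partly fixed in advance, and nothing is read from it about the known antisense RNAs. Of 21 imprinted or X-inactivation genes with a known opposite-strand RNA, 16 had a molecule, 2 were hosts and 1, Ube3a, was called, beside the 0.617% of all genes. Ube3a encodes a ubiquitin ligase whose paternal copy is silenced in neurons by an antisense transcript. It had 5 antisense molecules, 4 in 3 NSC, 1 in ESC-FCS and 0 in ESC-2i, against 24, 16 and 20 sense molecules. These 5 lay at 4 positions, 1 of which fell inside Snhg14, the host of the known antisense transcript. Trappc9, also in that list, had 2 antisense molecules in ESC-2i.

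Of 21 neural transcription factor genes with known divergent or opposite-strand RNA, 17 had a molecule and 1 was a host, and the same gene, Sox2, was the only host among 25 pluripotency and early lineage genes. The antisense share of the neural list was 0.506% (0.0614 to 1.82), with the same limit from the assignment rule. The 2 antisense molecules of Sox2 were in NSC, 13.3 kb from its start, on 12 and 38 reads. The antisense share of the pluripotency list was 0.0707% (0.00856 to 0.255). The 84 cytosolic ribosomal protein genes had 3 antisense molecules, all at Rpl10l, beside 129828 sense molecules (0.00231%). Genes of the mitochondrial genome had 0 antisense and 18466 sense molecules in kept cells, but with genes on both strands of a small genome the assignment rule leaves little or no strand there to be called antisense, so nothing is read from this 0. The 19 genes of nuclear RNA surveillance and termination had 0 antisense and 1056 sense molecules. The sense level of this last list was 12.1 molecules per 10000 in NSC (10.4 to 14.01), 14.0 for ESC-2i (12.8 to 15.3) and 15.5 for ESC-FCS (13.97 to 17.3). The intervals of NSC and ESC-FCS overlapped only barely, and an overlap does not show that the levels are equal.

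Among the 22 hosts with at least 100 sense molecules, Nedd4, a ubiquitin ligase gene, had the most antisense molecules, 11 against 380 sense molecules, from 74 reads. They lay at 7 positions opposite an exon, and the ESC-2i pools held 28. Fabp7, a fatty acid binding protein gene of neural progenitors, had 2 antisense and 378 sense molecules. These hosts were named after their values were seen.

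Within genes, 91.7% of antisense molecules lay in host introns and 7.49% in host exons of GENCODE M21. The share of host length in introns was not computed, so no preference for introns or exons is read from these values. Only 173 of the 2976 molecules (5.81%, 5.00 to 6.72), at 104 sites, lay inside a gene annotated on their own strand. That gene was a lincRNA for 44 molecules, a processed pseudogene for 43, a protein-coding gene for 39 and an annotated antisense RNA for 28. GENCODE M21 is a later annotation than the one behind the deposited classes.

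Few antisense molecules were close to the start of the host gene, 174 of 2976 (5.85%, 5.03 to 6.75) within 2000 bases on either side. Upstream of genes the molecules counted per assignable Mb were nevertheless more numerous near the start. This count includes molecules inside genes that GENCODE M21 annotates on their strand, such as the 5 at the Gphn site. The assignable length leaves those genes out, so the densities are too high, by an amount that was not computed. Per assignable Mb there were 2.02 molecules (1.51 to 2.65) within 1 kb, 1.57 (1.12 to 2.15) at 1 to 2 kb, 1.19 (0.949 to 1.47) at 2 to 5 kb and 0.963 (0.825 to 1.12) at 10 to 20 kb. Downstream of genes the first kb had 0.611 (0.342 to 1.01) and the stretch from 10 to 20 kb had 1.22 (1.06 to 1.39). By this count the first kb upstream had more antisense molecules than the first kb downstream, and the intervals did not overlap. How many of these molecules lay inside such annotated genes was not computed.

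The pools served to ask how many sites return at greater depth. The 2 ESC-2i pools had 792 antisense among 480183 molecules on genes (0.165%, 0.154 to 0.177) and 697 among 495391 (0.141%, 0.130 to 0.152), and the ESC-FCS pool had 345 among 179450 (0.192%, 0.173 to 0.214). All 3 lay below the single cells of their medium in the main series. The ESC-FCS pool lay above the additional ESC-FCS cells (0.109%, 0.0956 to 0.123), which the paper describes as generated on the same day as the pool. Spike-in molecules were 0, 0 and 76 in these pools, so a spike-in background could not be taken from them. Of the 748 antisense sites of ESC-2i cells, 63 were found within 12 bases in these pools (8.42%, 6.53 to 10.6), and they held 257 of the 1051 molecules (24.5%, 21.9 to 27.2). Sites with 1 molecule returned in 26 of 658 cases (3.95%) and sites with more in 37 of 90 (41.1%).

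Sense sites of the same cells returned far more often at gene ends, 86.0% within 10 bases of an annotated end and 64.0% of those with a single molecule, but in introns the figures were 11.4 and 8.16%. The antisense sites of ESC-FCS cells and NSC were also found in the ESC-2i pools, 5.06% and 4.27% of them. In the ESC-FCS pool 3.65% of the ESC-FCS sites were found, and in the additional ESC-FCS cells 3.42%. Between the pools themselves, 107 of the 571 antisense sites of the first (18.7%) and 107 of the 528 of the second (20.3%) were shared, with 32.7 and 33.6% of the molecules. Most antisense sites of a pool were thus not seen in the other pool of ESC-2i, at nearly the same depth. The sites with the most molecules in the ESC-2i pools were in Dlgap1, at 70392665 with 40 molecules, and in Gabrg3, at 57176706 with 33, where the ESC-2i cells had 12 and 14. Other sites frequent in cells were rare in these pools, which held 2 molecules at the Cntnap2 site 46778359, 2 at the Mageb18 site and 0 at the Adamts17 site 66990885. The Cntnap2 site with the most pool molecules, 20, was another one, at 47186161.

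**Figure D5:**
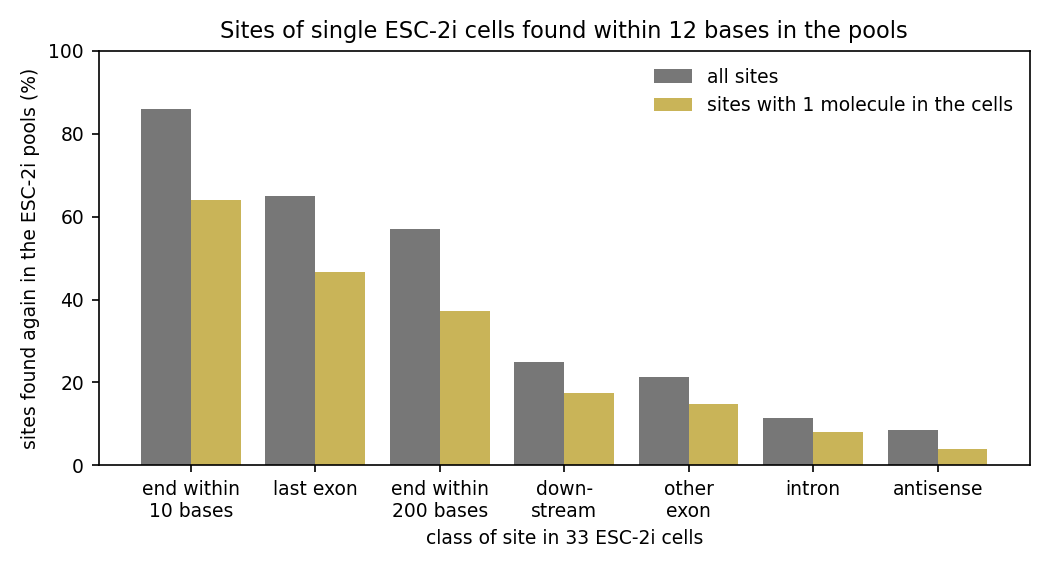
Share (%) of the sites of 33 ESC-2i cells found within 12 bases in the ESC-2i pools, by class of site, for all sites and for sites with 1 molecule in the cells. Antisense sites return least often, at 8.42 and 3.95%, next to sites in introns at 11.4 and 8.16%, and sites at gene ends most often, at 86.0 and 64.0%.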

How the data were processed

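Polyadenylated 3′ ends were measured in single cells and pools by BATSeq. Per the study's methods, the authors trimmed reads with terminal As, aligned them with GSNAP to GRCm38 with ERCC sequences appended, kept unique alignments, removed A-rich downstream positions, and counted molecules by barcode. The deposited files give raw molecule counts and read counts per site and cell, with a class for each site and sites merged within 12 bases; HTSeq and R 3.0.2 are named in the submitters' processing notes. The deposited table of genes served only to choose the 107 cells, those with a column there and at least 1000 molecules on genes.

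From these counts, antisense and sense molecules were summed by population, gene and site, with exact Clopper-Pearson and Poisson 95% intervals (Python 3.11.15, pandas 2.3.3, scipy 1.17.1). Kept cells had 1090 to 21101 molecules on genes. No test was run, since the labels name no replicate cultures and each population counts as 1 sample. Gene positions came from GENCODE M21 on GRCm38. The files give no chromosome, which was taken from the host gene, and 22 hosts with 32 molecules are not in M21. Classes are those of the authors.

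Named genes were the 10 hosts with the most antisense molecules, up to 5 per comparison with the largest fold among those differing in one direction in all batch pairs, the 5 with the most antisense and no sense molecule, and members of the gene lists with at least 5. Members, lists and rules were chosen with earlier results of these data known. Alternatives covered the cells used, read support, classes, thresholds, windows and denominators.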

Additional observations from a re-analysis of the deposited data

How the results depend on the processing

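Of 78 alternatives to 13 values, 34 left the value inside its interval or, for counts, within 1.5 times. No paired analysis was possible because the labels name no replicate cultures and no test was run. The shares on genes stayed at 0.285, 0.492 and 0.471% (ESC-2i, ESC-FCS, NSC) to within their intervals with all 144 cells, with at least 2000 molecules and without the mitochondrial genome. They became 0.0802, 0.113 and 0.132% in reads, 0.199, 0.358 and 0.317% within genes only, 0.247, 0.437 and 0.405% without the downstream class, 0.320, 0.422 and 0.522% in batch 1 and 0.253, 0.587 and 0.416% in batch 2. The following alternatives were chosen after seeing the data. Without the sites with at least 10 molecules the shares were 0.227, 0.407 and 0.416%, and with at least 2 reads per molecule 0.0960, 0.177 and 0.191%, where the spike-in share was 0.194%. The spike-in share was 0.264% in reads. The share at genes with at least 100 sense molecules was 0.00346% from 1000 and 0.156% from 10 sense molecules. Host genes above the background numbered 286 from 3 and 32 from 10 antisense molecules, against 121. The poly(A) signal, over the sites with bases only, was at 8.04% within 10 to 30 bases, and at 50% of the sites with at least 5 molecules, which are 2. The share near the start was 3.90% within 1000 bases, 10.6% within 5000 and 6.80% by sites, and the share on opposite-strand genes was 4.98% by sites. Sites found in the ESC-2i pools were 2.14% at the same position and 41.1% with at least 2 molecules, and 4.95 to 6.42% without one or the other pool. The counts of hosts that differed became 20, 9 and 13 from 5 molecules, 5, 8 and 9 at 2-fold and, for NSC against ESC-2i, 5 per spike-in molecule. Depth limits statements on single sites, of which 87.7% rest on 1 molecule.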
